A study of Mus musculus with 16 samples.

Results

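Messenger RNAs that are removed from the 5′ end lose their cap first and are then digested by an exonuclease. The genes examined here encode that route. They are Dcp2, the enzyme that cuts the cap, Dcp1a and Dcp1b, its coactivators, Edc3 and Edc4, which enhance or scaffold decapping, Ddx6, a helicase that recruits the decapping complex to repressed mRNAs, Lsm1, the subunit that defines the cytoplasmic LSM ring bound to mRNAs with shortened tails, and the 5′ to 3′ exonucleases Xrn1 and Xrn2. They were chosen by gene name, with earlier results of these data known but by no rule on their values, and make up 9 of the 28618 entries of the expression table, with 1 entry per gene. Transcripts were measured by RNA-seq in GV oocytes and in MII eggs. GV oocytes are fully grown and arrested before the meiotic divisions, and MII eggs normally have matured, been ovulated and arrested again. There were 16 libraries, with 4 biological replicates in each of 4 groups.

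The WT groups carried no stated modification, and the Psma7 cKO groups came from females with Zp3-Cre and homozygous floxed Psma7 alleles (Psma7 fl/fl;Zp3-Cre). Psma7 encodes the α4 subunit of the 20S proteasome. The Zp3 promoter drives CRE in growing oocytes, so the surrounding follicle cells of these females keep the gene. All females were 3 to 4 weeks old and had received 5 IU PMSG, a gonadotropin that stimulates follicle growth. GV oocytes were taken 44 h later. For MII eggs, hCG was given at 44 h, eggs were collected from the oviducts 14 to 16 h after it, and cumulus cells were removed with 0.3% hyaluronidase. The study reports that part of the oocytes ovulated by cKO females were arrested before MII, some of them at the GV stage. Whether such cells were in the cKO MII pools is not stated, and their part in the results below was not tested. Each library was made from a pool of 5 cells according to the sample labels (10 according to the methods of the study), and the labels do not tie pools to individual females, so p-values measure the spread between pools. Values are FPKM, fragment numbers divided by transcript length and by the size of the library, and so are shares of a library.

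A growing oocyte stores mRNA in a stable form, and transcription stops before maturation. After meiosis resumes, many stored mRNAs are degraded, while others that were kept dormant with short poly(A) tails gain longer tails and are translated. Decapping is usually preceded by shortening of the tail. Dcp1a and Dcp2 are known as dormant mRNAs whose protein accumulates during maturation, and tail extension of such mRNAs is commonly directed by a cytoplasmic polyadenylation element (CPE) close to the polyadenylation signal in the 3′ UTR.

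The end of each annotated 3′ UTR was therefore searched for these elements, and a window of 30 bases ending at the polyadenylation signal is given for the tested genes because it shows how near a CPE stands to that signal. Positions are GRCm38 from GENCODE M21, all on the plus strand and inside the last exon of the longest principal transcript, and capitals mark the polyadenylation signal (AATAAA or ATTAAA) and any CPE (TTTTAT or TTTTAAT) that lies whole in the window.
Dcp1a, chr14:30527001-30527030: atatgtttgcaaatatatttTTTTAATAAA
Lsm1, chr8:25803897-25803926: tattcaatttcatgctctctgcttATTAAA
Edc4, chr8:105893174-105893203: agaaatgcaATTAAAggcttttggAATAAA
Ddx6, chr9:44640685-44640714: tgtttctttttgttaatttatctcAATAAA
Xrn1, chr9:96052993-96053022: tttgttgtacatcagtgatacctcAATAAA
Xrn2, chr2:147077956-147077985: tgtggactttagtaaaaaAATAAAAATAAA
Dcp1a held 2 CPEs within the 100 nt before its signal. The nearer one, TTTTAAT, started 4 nt before the signal and overlapped it, and the farther one, TTTTAT, started 28 nt before it, so that most of it lies before the window and its last bases are not in capitals. Lsm1 held 1, a TTTTAAT 49 nt before its signal and outside the window shown. None was found in the same 100 nt for Dcp2, Dcp1b, Edc4, Ddx6, Xrn1 or Xrn2, and no polyadenylation signal lay within 60 nt of the annotated end of Edc3, so no CPE search was made there. By the same search on the transcript strand, 14.56% of 18088 principal transcripts with a 3′ UTR of at least 160 nt held a CPE. The share was 27.88% among the 2145 genes higher in WT MII eggs than in WT GV oocytes, 11.08% among the 4042 that were lower and 21.18% among the 1648 that were tested and not called. A match is a description of the letters and was not tested as a working site, and the 3′ end used in oocytes can differ from the annotated one. For Xrn1 and Edc4 the annotated gene runs past the end of the transcript used, and that stretch was not searched.

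The genes lie at chr14:30479535-30527063 (Dcp1a), chr6:119175253-119221616 (Dcp1b), chr18:44380502-44424969 (Dcp2), chr9:57708540-57752499 (Edc3), chr8:105880881-105894908 (Edc4), chr9:44604892-44640731 (Ddx6), chr9:95954760-96057803 (Xrn1), chr2:147012996-147078000 (Xrn2) and chr8:25785288-25803975 (Lsm1). Exons of Edc3 overlap Clk3, and exons of Xrn1 overlap C78334 and Gm16794, each on the opposite strand. Smart-seq2 libraries do not mark the strand, so fragments from those stretches cannot be assigned to one gene.

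Depth, estimated from the spacing of the lowest FPKM values, ranged from 10.56 to 15.66 M fragments per library. At the estimated depth, only 38.5% to 42.0% of the values used lay within 0.1 of a whole fragment. The depth, and the fragment numbers derived from it below, are therefore rough. The deleted gene was lower in cKO than in WT at both stages. Psma7 was at 165 ± 25.3 FPKM (SD, n = 4) in WT and 14.6 ± 2.82 in cKO GV oocytes, 8.83% of WT (two-sided exact permutation test, p = 0.0286, the smallest that 4 against 4 libraries allow). In MII eggs it was at 126 ± 32.1 in WT and 39.7 ± 20.2 in cKO, 31.5% of WT (exact p = 0.0286, and 0.0571 without WT MII replicate 4). From GV to MII, Psma7 rose in cKO (log2 1.27, limma adjusted p = 0.0188) and fell in WT (log2 -0.41, adjusted p = 0.0407). The limma test of a difference between these changes gave an adjusted p of 0.0847. All 11 oocyte marker genes were at 1 FPKM or more in every library. Of 15 cumulus and granulosa markers, 12 or 13 per group were below 1 FPKM in every library. Amh, Amhr2 and Foxl2 were at 0 in all MII eggs. Ptx3 and Tnfaip6 were at 0 in all WT but not all cKO eggs, and Fshr in all cKO but not all WT eggs. The list, mostly Cyp19a1 and Kitl, summed to 14.05 to 16.41 FPKM per library in WT GV oocytes, 16.84 to 20.68 in cKO GV oocytes, 17.68 to 22.16 in WT MII eggs and 20.25 to 21.41 in cKO MII eggs. Both markers tested in WT maturation were higher in eggs, Cyp19a1 (log2 0.76, limma adjusted p = 3.72e-04) and Kitl (log2 0.59, adjusted p = 0.00769). In cKO maturation, 1 of 3 tested was higher and 1 lower. The part of these differences in the results below was not tested. In the 4 cKO MII libraries, the 397 entries that fell over 10-fold from WT GV oocytes to WT MII eggs kept 12.7%, 8.80%, 34.5% and 19.0% of their summed GV level in replicates 1 to 4, against 5.93% to 6.80% in WT MII eggs. These entries were chosen by their fall in the same WT libraries, so the rule itself held the WT values low. The gap between genotypes was not tested.

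During maturation of WT oocytes, most tested transcripts of the decapping route took a larger share of the library in eggs, whereas that of the scaffold Edc4 shrank. Of the 9 genes, 7 had a mean of at least 1 FPKM and were tested. Dcp1b and Edc3, whose values below 1 FPKM were also lower in WT eggs, were not. Of the 7, 5 rose (Dcp2, Xrn1, Lsm1, Dcp1a and Xrn2), 1 fell (Edc4) and Ddx6 did not pass the test. Of all 10475 entries tested with limma, 26.1% rose and 52.4% fell at an adjusted p under 0.05, and 23.9% were higher and 48.7% lower in eggs without overlap between the stages. The median log2 fold change was 0.53 over the 7 genes and -0.44 over all entries. A share says nothing of the RNA content of a cell, and more transcript molecules, less of other RNA in the egg and more complete copying of transcripts with longer tails by the oligo-dT primer cannot be told apart here.

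Dcp2, the catalytic subunit, was at 6.27, 6.87, 8.16 and 7.83 FPKM in WT GV oocytes and at 14.3, 15.8, 12.5 and 15.8 in WT MII eggs. In cKO females it was at 7.66, 6.72, 5.59 and 8.04 in GV oocytes and at 14.5, 17.2, 16.8 and 16.0 in MII eggs. Every egg library of either genotype lay above every GV library. The increase was 2.01-fold in WT (log2 1.01, SE 0.12, limma adjusted p = 2.09e-05), in the 92.5th percentile of all changes tested. It was 2.32-fold in cKO (log2 1.21, SE 0.13, adjusted p = 3.97e-05). The genotype by stage term, which measures how far the change in cKO differs from that in WT, was 0.21 with a 95% interval of -0.18 to 0.59 (limma adjusted p = 0.608).

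Dcp1a, the coactivator, had the highest FPKM of the 9 in all 16 libraries. In WT it was at 113, 120, 104 and 118 FPKM in GV oocytes and at 155, 155, 178 and 166 in MII eggs. In cKO it was at 104, 116, 109 and 115 in GV oocytes and at 169, 154, 142 and 140 in MII eggs. Levels in eggs were above those in GV oocytes without overlap in both genotypes. The rise was 1.44-fold in WT (log2 0.53, SE 0.08, limma adjusted p = 1.02e-04) and 1.36-fold in cKO (log2 0.45, SE 0.08, adjusted p = 0.00108). Dcp1a alone made up 50.3% ± 2.39 (SD, n = 4) of the summed FPKM of the 9 genes in WT GV oocytes and 59.2% ± 1.81 in WT MII eggs. Since Dcp2 rose more than Dcp1a, the ratio of Dcp1a to Dcp2 was 15.8 ± 2.45 in WT GV oocytes and 11.3 ± 1.96 in WT MII eggs, with ranges of 12.7 to 18.1 and 9.85 to 14.2 that overlap.

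Dcp1b, the paralog of Dcp1a, was below 1 FPKM in all 16 libraries. It was at 0.912, 0.508, 0.627 and 0.814 FPKM in WT GV oocytes and at 0.144, 0.209, 0.373 and 0.231 in WT MII eggs, and so went the opposite way from Dcp1a without overlap between the stages. In cKO its range was 0.483 to 0.779 in GV oocytes and 0.294 to 0.472 in MII eggs. The ratio of Dcp1a to Dcp1b was 167 ± 48.4 in WT GV oocytes and 754 ± 246 in WT MII eggs. Dcp1b lay under the level needed for testing, and from the estimated depth and the GENCODE transcript length its value in a WT MII library stands for only about 5.93 to 17.7 fragments.

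Edc4, the large scaffold that holds decapping factors together, was the one tested member to fall. WT GV oocytes had 65.3, 67.6, 31.3 and 60.8 FPKM and WT MII eggs 26.2, 27.8, 27.8 and 25.5. In cKO it was at 45.5, 60.2, 77.2 and 52.4 in GV oocytes and at 26.8, 22.0, 20.8 and 22.3 in MII eggs. GV replicate 3 of WT was lower than the other WT GV libraries but still above every egg library. The decrease was 2.01-fold in WT (log2 -1.005, SE 0.21, limma adjusted p = 0.00118) and 2.52-fold in cKO (log2 -1.33, SE 0.16, adjusted p = 6.87e-05). In WT, 34.7% of all tested entries had a log2 fold change at or below that of Edc4, so it fell more than the median entry. Edc4 made up 24.5% ± 5.78 of the summed FPKM of the 9 genes in WT GV oocytes and 9.73% ± 0.433 in WT MII eggs.

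Edc3, a decapping enhancer that binds Dcp2-containing complexes, was nearly absent. It was at 0.602, 0.144, 0.251 and 0.359 FPKM in WT GV oocytes and was listed at 0 in all 4 WT MII libraries. Levels in cKO GV oocytes were 0.256 to 0.553 FPKM, and cKO MII eggs had 0 to 0.0429. By the estimated depth, the WT GV values stand for about 11.6 to 52.9 fragments per library. In a WT MII library, 3 fragments would have been worth at most 0.0423 FPKM, which is below every WT GV value. The signal listed for Edc3 thus fell by more than this estimated limit. Fragments from the stretch where its exons overlap Clk3 cannot be assigned to one gene, so that signal may not be of Edc3 alone. No fold change is given against a group listed at 0.

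Ddx6, the helicase, was at 11.3, 5.88, 9.32 and 7.42 FPKM in WT GV oocytes and at 10.1, 11.7, 10.6 and 10.2 in WT MII eggs. In cKO it was at 9.26, 8.25, 10.5 and 7.04 in GV oocytes and at 8.27, 6.81, 8.90 and 7.98 in MII eggs. Stages overlapped in both genotypes. The log2 fold change from GV to MII was 0.37 in WT (SE 0.18, 95% interval -0.03 to 0.77, limma adjusted p = 0.0807) and -0.12 in cKO (SE 0.15, interval -0.46 to 0.21, adjusted p = 0.465). WT GV replicate 1 lay above all but 1 of the WT MII libraries. Without it the WT change was 0.52 (adjusted p = 0.0133), and rescaling libraries by their median ratio gave 0.60 (adjusted p = 0.00865).

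Lsm1 was at 16.5, 10.6, 16.2 and 12.5 FPKM in WT GV oocytes and at 25.1, 23.9, 18.4 and 23.1 in WT MII eggs, without overlap. In cKO it was at 20.1, 11.9, 15.2 and 14.9 in GV oocytes and at 18.6, 19.2, 24.0 and 21.8 in MII eggs, where GV replicate 1 lay among the eggs. The rise was 1.64-fold in WT (log2 0.71, SE 0.16, limma adjusted p = 0.00163) and 1.36-fold in cKO (log2 0.45, SE 0.16, adjusted p = 0.0309). The cKO call was lost when cKO GV replicate 2, 3 or 4 or cKO MII replicate 3 or 4 was left out, with an adjusted p of up to 0.0812, and the log2 fold change then stayed between 0.33 and 0.58 over all 8 single omissions. The WT call held in all 8.

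Xrn1, the cytoplasmic exonuclease that digests decapped mRNA, was the rarest of the tested genes in GV oocytes. It was at 4.20, 3.39, 4.60 and 3.53 FPKM in WT GV oocytes and at 7.62, 8.51, 8.40 and 6.19 in WT MII eggs. In cKO it was at 2.71, 3.60, 2.83 and 3.45 in GV oocytes and at 8.13, 7.31, 6.68 and 6.67 in MII eggs. Every egg library was above every GV library. Xrn1 increased 1.96-fold in WT (log2 0.97, SE 0.15, limma adjusted p = 1.24e-04) and 2.30-fold in cKO (log2 1.20, SE 0.14, adjusted p = 5.09e-05).

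Xrn2, the nuclear exonuclease that also takes part in ending transcription, was at 22.2, 20.9, 21.8 and 21.7 FPKM in WT GV oocytes and at 27.9, 27.7, 33.9 and 29.3 in WT MII eggs. In cKO it was at 17.9, 19.5, 18.4 and 20.4 in GV oocytes and at 26.7, 25.5, 24.7 and 27.9 in MII eggs. The stages did not overlap in either genotype. It rose 1.37-fold in WT (log2 0.45, SE 0.09, limma adjusted p = 7.21e-04) and 1.38-fold in cKO (log2 0.46, SE 0.09, adjusted p = 9.73e-04). Because Xrn1 rose more, the ratio of Xrn2 to Xrn1 was 5.59 ± 0.703 in WT GV oocytes and 3.92 ± 0.625 in WT MII eggs, with ranges that do not overlap (4.74 to 6.17 and 3.26 to 4.73).

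**Figure D1:**
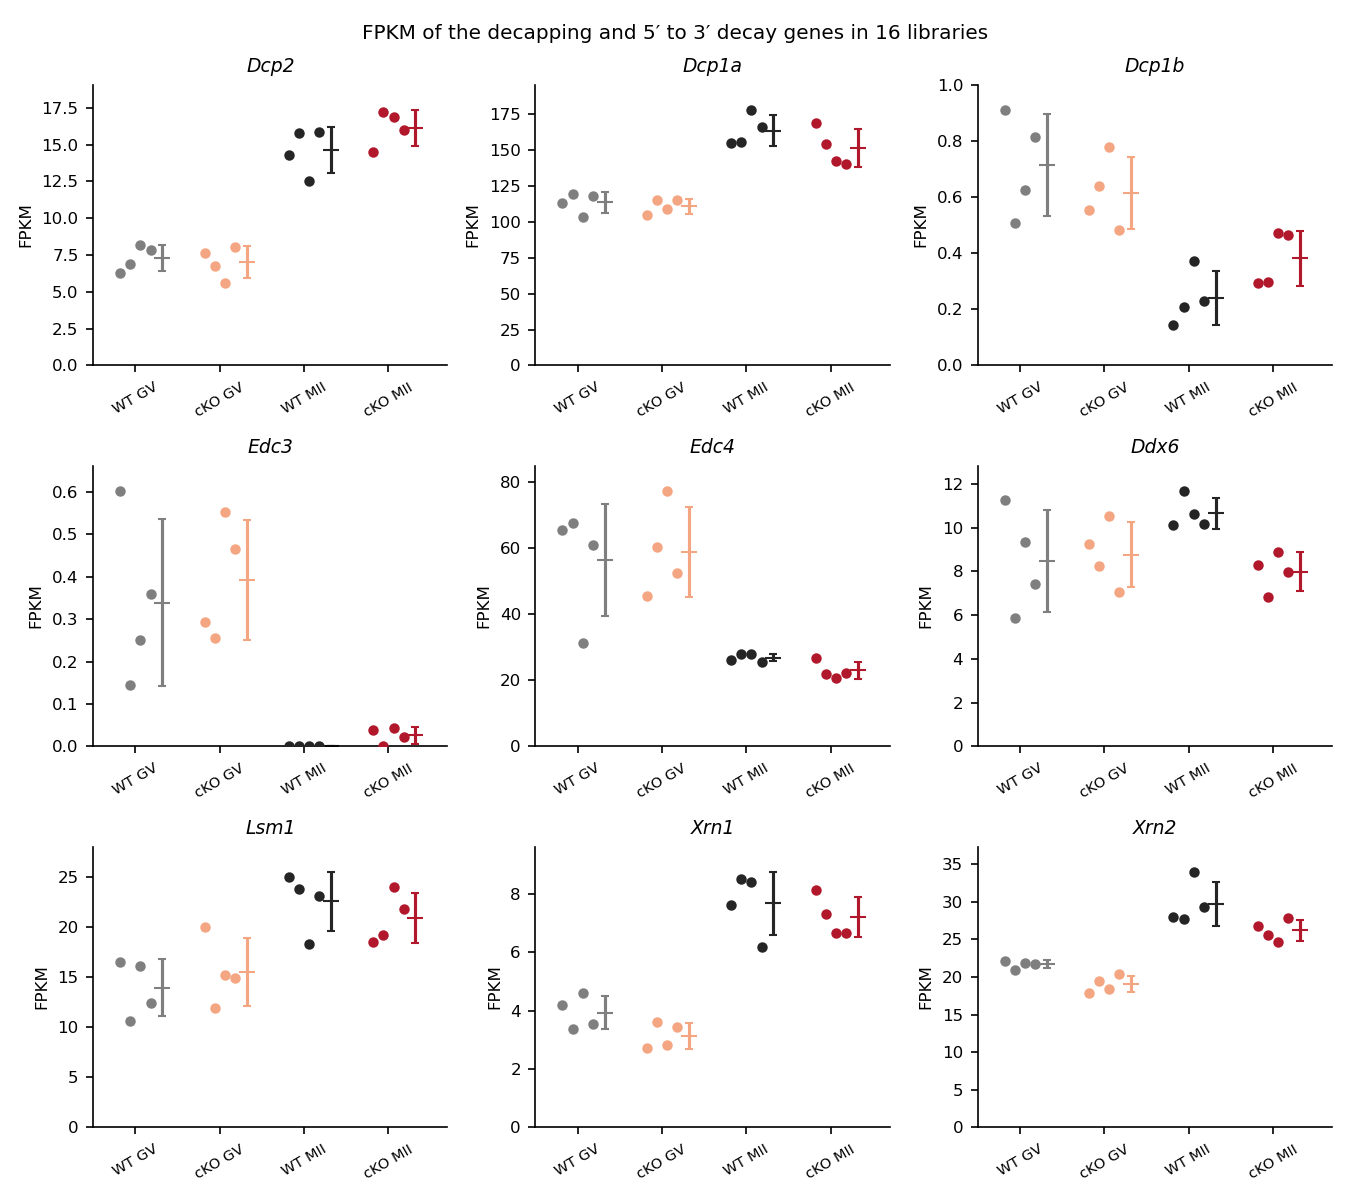
FPKM of the 9 decapping and 5′ to 3′ decay genes in each of the 16 libraries (points) with the mean ± SD of each group of 4 (bars beside the points), on linear axes that start at 0. Dcp2, Dcp1a, Xrn1 and Xrn2 are higher in all MII eggs than in all GV oocytes of the same genotype, Edc4 and the scarce Dcp1b are lower, and Ddx6 is lower in all cKO eggs than in all WT eggs.

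In cKO females the maturation comparison made the same number of calls, 5 higher and 1 lower of 7, against 23.0% higher and 51.0% lower of 10748 entries tested, with 21.4% higher and 47.2% lower without overlap. The genes called were Dcp2, Xrn1, Lsm1, Dcp1a and Xrn2 (higher) and Edc4 (lower) in each genotype. The interaction called 0 of the 7 genes, where 1.07% of 10615 entries had a higher and 0.188% a lower term at an adjusted p under 0.05, and 0 of the 7 had an unadjusted limma p under 0.05, beside 17.7% of all entries. The term farthest from 0 was that of Ddx6, -0.50 with a 95% interval of -1.01 to 0.02 (limma adjusted p = 0.305). The 9 genes together summed to 226 ± 20.5 FPKM in WT before maturation and to 276 ± 10.2 after it, and to 224 ± 12.9 and 253 ± 13.4 in cKO females. No tested member was among the entries whose group means, with values below 1 FPKM set to 1, differed over 3-fold. From GV to MII these were 1.07% higher and 22.1% lower of the entries tested in WT and 0.856% and 17.2% in cKO, and between genotypes they were 0.0362% higher and 0.0271% lower in cKO GV oocytes and 1.76% and 0.0211% in cKO eggs. None of the 7 tested genes belonged to the 397 that fell over 10-fold in WT, a rule that also set values below 1 FPKM to 1. Dcp1b and Edc3 were below 1 FPKM in every library and so could not meet either rule.

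Rescaling the libraries by their median ratio raised the median log2 fold change of all entries by 0.23 in WT and 0.20 in cKO maturation. It changed no direction of the 6 called genes in either genotype. In WT the rescaled change was 0.76 for Dcp1a, 1.23 for Dcp2, 1.20 for Xrn1, 0.68 for Xrn2, 0.94 for Lsm1 and -0.78 for Edc4.

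**Figure D2:**
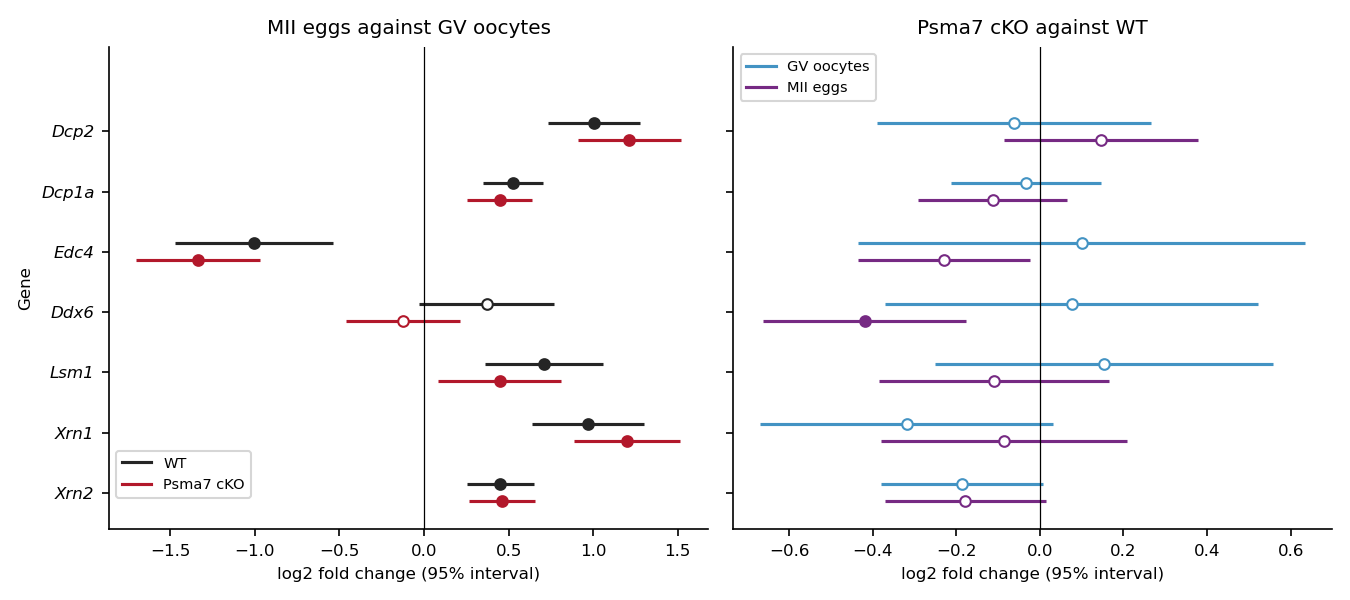
Log2 fold changes of the 7 tested genes with 95% intervals from limma, for MII eggs against GV oocytes of WT (black) and Psma7 cKO (red) on the left, and for Psma7 cKO against WT in GV oocytes (blue) and MII eggs (purple) on the right, where filled points have an adjusted p under 0.05. The changes between stages reach 1.21 and -1.33, whereas between genotypes only Ddx6 in MII eggs, at -0.42, is filled.

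The genotype comparison in GV oocytes asks whether loss of Psma7 alters the stored transcripts before maturation. It called 0 of the 7 genes, where 0.0994% of 11062 entries were higher and 0.0181% lower in cKO (limma, adjusted p under 0.05), and 0 of the 7 reached an unadjusted p under 0.05, beside 10.7% of all entries. Log2 fold changes ran from -0.32 for Xrn1 to 0.15 for Lsm1, and the intervals of the 7 genes together spanned -0.67 to 0.63. The exonucleases had the lowest values of this comparison. The Xrn2 range was 17.9 to 20.4 FPKM in cKO and 20.9 to 22.2 in WT, without overlap, while 2.42% of all entries were lower and 4.25% higher in cKO without overlap. Its log2 fold change was -0.19 (SE 0.09, limma adjusted p = 0.491). For Xrn1, the change of -0.32 (SE 0.16) had an adjusted p of 0.517, and the ranges of 2.71 to 3.60 in cKO and 3.39 to 4.60 in WT overlapped.

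In MII eggs, 6 of the 7 genes had a lower mean log2 level in cKO than in WT, but only Ddx6 passed the test. The median log2 fold change was -0.11 over the 7 genes and 0.07 over all 9492 entries tested, of which 1.49% were lower and 6.53% higher in cKO at an adjusted p under 0.05. Rescaling by the median ratio gave 223 lower and 537 higher entries in place of 141 and 620. Ddx6 was at 6.81 to 8.90 FPKM in cKO and 10.1 to 11.7 in WT eggs, without overlap, as were 7.06% of all entries in this direction and 13.6% in the other. The difference was 1.34-fold (log2 -0.42, SE 0.11, limma adjusted p = 0.0477). It lies at the threshold. Leaving out any 1 of the 8 egg libraries kept the log2 difference between -0.47 and -0.34 but took the adjusted p to between 0.0572 and 0.115, and the count of called members to 0. The genotype effect on Ddx6 in eggs was not shown to differ from that in GV oocytes (log2 0.08, interval -0.37 to 0.52) by the interaction term given above.

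Edc4 was the other gene with an unadjusted limma p under 0.05 in eggs, at 20.8 to 26.8 FPKM in cKO and 25.5 to 27.8 in WT. Of all entries, 29.4% were under that unadjusted threshold, a share near the 2 of 7 found here. Its log2 difference was -0.23 (SE 0.09, limma adjusted p = 0.133), and cKO replicate 1 lay within the WT range. Xrn2 differed by -0.18 (interval -0.37 to 0.01), Dcp1a by -0.11 (-0.29 to 0.07), Lsm1 by -0.11 (-0.39 to 0.17) and Xrn1 by -0.09 (-0.38 to 0.21), and Dcp2 by 0.15 in the other direction (-0.09 to 0.38). None of these passed the test. The cKO egg libraries are also those that kept more of the decaying entries, which were chosen by their fall in WT. Among the 4 cKO eggs, replicate 3, which kept the most, had the highest Ddx6 level. The part of incomplete decay in these differences was not tested.

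The partners of Lsm1 in the ring did not all rise with it. LSM1 joins LSM2 to LSM7 in the cytoplasmic ring, and LSM8 takes its place in a nuclear ring that binds U6 RNA. Of the 7 genes Lsm2 to Lsm8, 1 rose in WT maturation (Lsm5) and 3 fell (Lsm2, Lsm3 and Lsm6). The median of these 7 was -0.52, the value of Lsm8 itself, beside -0.44 for all entries. Lsm5 was the highest, with 117 to 197 FPKM in WT GV oocytes and 167 to 244 in WT MII eggs (log2 0.47, SE 0.16, limma adjusted p = 0.0188), a call that was lost without WT GV replicate 1 or 2 or WT MII replicate 1 (adjusted p of up to 0.0613). Lsm6 was the lowest, from 13.1 ± 0.689 to 2.77 ± 0.149 FPKM (log2 -2.25, SE 0.10, adjusted p = 1.10e-08).

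Between genotypes, 2 of the 7, Lsm3 and Lsm6, were called higher in cKO eggs, beside 6.53% of all entries. None of the 7 was called in GV oocytes, where only 0.0994% of all entries were called higher and 0.0181% lower. Lsm3 was at 39.1, 31.5, 28.0 and 31.9 FPKM in WT MII eggs and at 57.6, 52.5, 87.0 and 61.7 in cKO (log2 0.97, SE 0.16, limma adjusted p = 0.0207). For Lsm6 the levels were 2.79, 2.90, 2.83 and 2.55 in WT and 6.04, 5.03, 7.70 and 4.40 in cKO (log2 1.04, SE 0.17, adjusted p = 0.0215). Neither overlapped. The interaction term was 1.16 for Lsm3 (limma adjusted p = 0.0338) and 1.02 for Lsm6 (adjusted p = 0.0269). Of all entries, 1.07% had a higher term at an adjusted p under 0.05. In WT both genes fell in maturation, whereas in cKO Lsm6 fell (log2 -1.22, limma adjusted p = 1.80e-04) and Lsm3 did not pass the test (log2 -0.24, adjusted p = 0.289). Among the eggs both were highest in cKO replicate 3, the library that kept the most of the decaying entries. The library that kept the next most, cKO replicate 4, was also next for Lsm3 but was the lowest of the cKO eggs for Lsm6. The part of incomplete decay in the difference was not tested. The egg calls were lost when any 1 of the 4 WT MII libraries was left out (adjusted p of up to 0.0631 for Lsm3 and 0.0749 for Lsm6) and held without each cKO library.

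**Figure D3:**
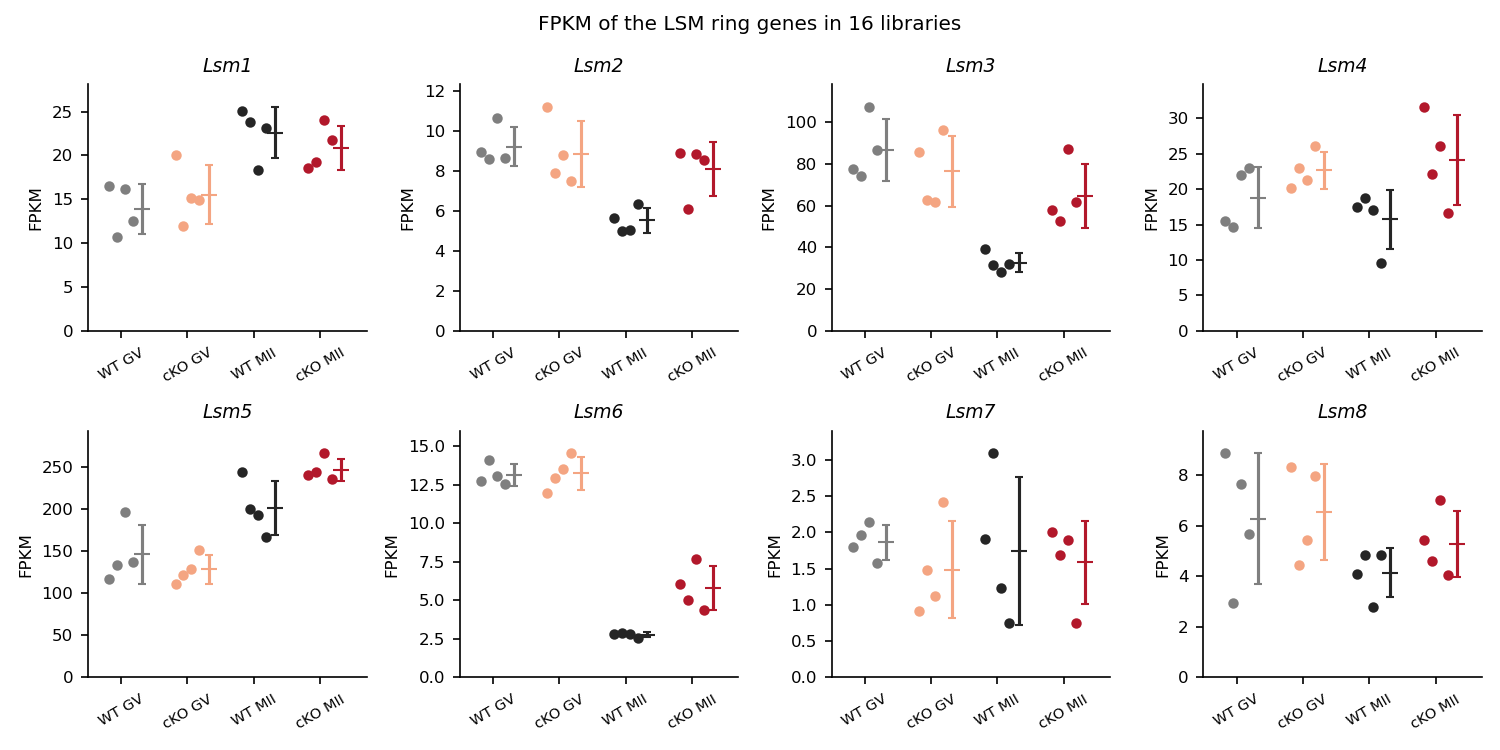
FPKM of Lsm1 to Lsm8 in the 16 libraries (points) with the mean ± SD of each group of 4 (bars), on linear axes that start at 0. Lsm1 and Lsm5 are higher in WT MII eggs than in WT GV oocytes, Lsm2, Lsm3 and Lsm6 are lower, and Lsm3 and Lsm6 are higher in all cKO eggs than in all WT eggs.

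Proteins that activate decapping or bind Ddx6 split in WT maturation, with 3 of 7 genes higher (Patl1, Lsm14a and Lsm14b) and 4 lower (Patl2, Pnrc1, Eif4enif1 and Pnrc2). The paralogs of the decapping activator Pat1 moved in opposite directions. Patl1 went from 3.02 ± 0.477 to 6.61 ± 0.801 FPKM (log2 1.14, SE 0.15, limma adjusted p = 3.66e-05), and Patl2, which acts as a translational repressor in growing oocytes, went from 48.9 ± 14.0 to 2.91 ± 0.271 (log2 -4.03, SE 0.17, adjusted p = 7.08e-09). The median of the 7 was -0.67. In cKO eggs, Pnrc1, a coactivator of decapping, was higher than in WT (8.55 ± 1.53 against 4.77 ± 0.969 FPKM, log2 0.85, limma adjusted p = 0.0332). Lsm14a, a partner of Ddx6 in repressed mRNPs, was lower in cKO eggs (66.5 ± 4.43 against 81.2 ± 5.62 FPKM, log2 -0.29, adjusted p = 0.0484). The Pnrc1 call was lost when any 1 of 6 egg libraries was left out (each of the 4 WT libraries, cKO replicate 1 and cKO replicate 3) and that of Lsm14a when any 1 of the 8 was, with adjusted p-values of up to 0.0930 and 0.131.

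Among other enzymes that act on caps and 5′ ends, 4 of 6 genes were tested in WT maturation, and 1 rose and 1 fell. Dcps, which hydrolyses the cap left after 3′ to 5′ decay, went from 4.37 ± 0.507 to 6.51 ± 1.12 FPKM (log2 0.57, limma adjusted p = 0.00559). Dxo, which removes faulty caps, went from 5.63 ± 0.918 to 0.256 ± 0.116 FPKM (log2 -2.48 with eggs at the floor of 1 FPKM, adjusted p = 4.45e-08). The list median was -0.25, and no gene of it was called between genotypes.

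Of 11 factors of nonsense-mediated decay, which hands faulty mRNAs to decapping and other routes, 8 were tested, and 4 rose and 3 fell in WT maturation. Their median of 0.22 lies midway between Upf2 (-0.13) and Smg6 (0.56), so its sign depends on which factors the list holds. The kinase Smg1 rose the most, from 1.82 ± 0.127 to 4.44 ± 0.353 FPKM (log2 1.28, limma adjusted p = 2.53e-06), and the exon junction protein Rbm8a was lowest, from 48.3 ± 6.60 to 22.2 ± 2.16 (log2 -1.12, adjusted p = 4.14e-06). In cKO eggs Rbm8a was higher than in WT (37.6 ± 7.86 FPKM, log2 0.74, adjusted p = 0.0307). Rbm8a lost its egg call when any 1 of the 4 WT libraries or cKO replicate 1 was left out, with a limma adjusted p of up to 0.0770.

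The exosome and its Ski cofactors degrade mRNA from the other end, 3′ to 5′. Of their 17 entries tested (16 genes), 5 rose and 10 fell in WT maturation, with a median of -0.45 beside -0.44 for all entries. Ttc37, a Ski subunit, rose from 10.0 ± 1.18 to 22.5 ± 1.95 FPKM (log2 1.17, limma adjusted p = 2.72e-06), and Exosc5, a subunit of the exosome core, fell from 43.6 ± 4.65 to 3.21 ± 0.462 (log2 -3.77, adjusted p = 1.73e-09). No entry of this list was called between genotypes. The medians of these lists and of the decapping genes are set side by side without a test, since the lists were chosen with earlier results of these data known.

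**Figure D4:**
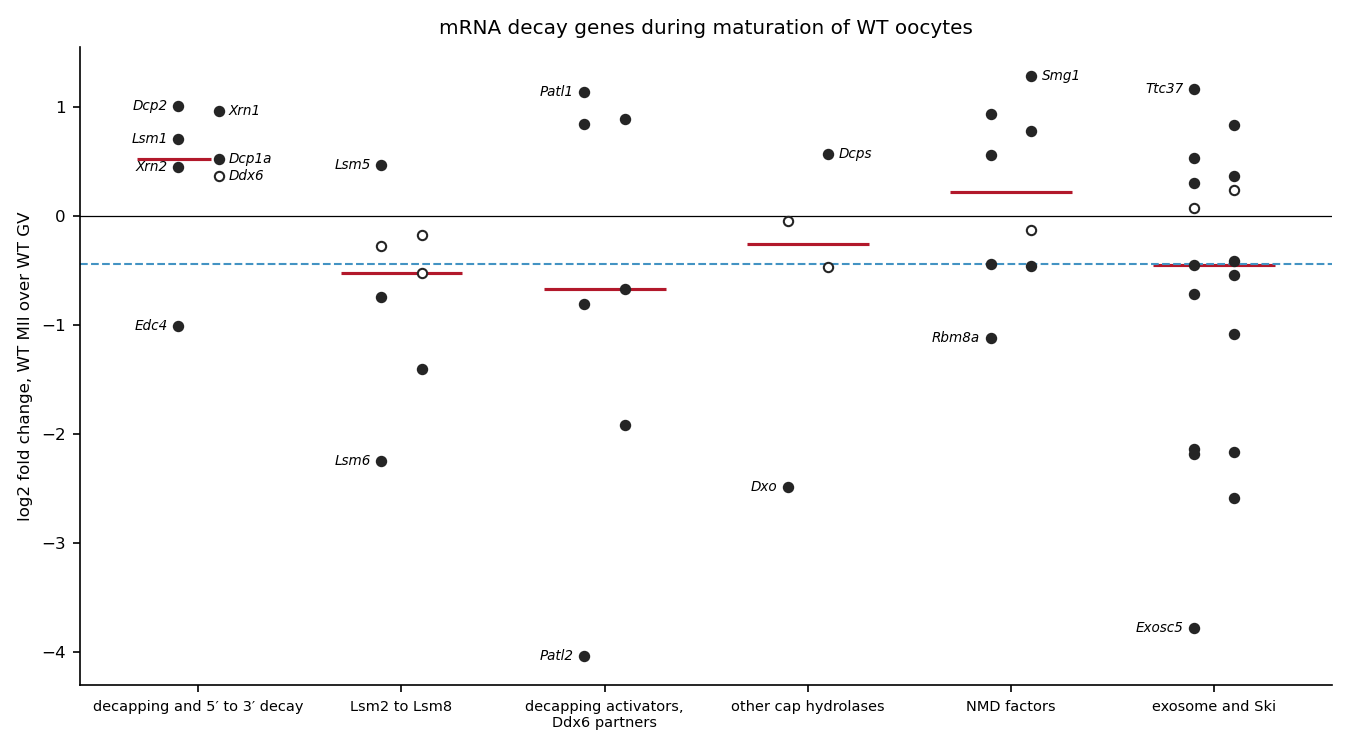
Log2 fold changes from WT GV oocytes to WT MII eggs of the tested genes of 6 lists of mRNA decay factors (filled points have a limma adjusted p under 0.05, red lines are list medians, and the dashed blue line is the median of all 10475 entries). The median of the decapping and 5′ to 3′ decay genes is 0.53 and those of the other lists lie between -0.67 and 0.22.

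For Dcp1a and Dcp2, the entries whose levels followed theirs most closely over the 16 libraries were sought among 10608 entries, as a description. Those nearest to Dcp1a were Atl1 (Pearson r 0.986), Dbf4 (0.967) and Ccdc14 (0.966), and 551 entries had an r over 0.9. Nearest to Dcp2 were Polr2f (0.987), Serf2 (0.987) and Cks2 (0.986), among 1082 with an r over 0.9. The 16 points fall into GV and MII libraries, so any entry that rises in eggs in both genotypes correlates with both genes.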

How the data were processed

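RNA of 16 pools of mouse GV oocytes and MII eggs was copied with oligo-dT primers by Smart-seq2, with ERCC spike-ins of which the table holds 0 entries. The authors deposited FPKM values made with Cufflinks 2.2.1, and the submitters' processing notes also name TopHat2 2.1.1 and mm10 (the annotation is not given in the sources used here). FPKM below 1 was set to 1, as in the study, and log2 values were fitted with limma 3.58.1 (R 4.3.3, empirical Bayes with intensity trend) for entries with a mean of at least 1 FPKM in the libraries of the fit. Each comparison used its own 8 libraries and the interaction all 16, with Benjamini-Hochberg adjustment over all entries tested and a threshold of 0.05. Fold changes are on this floored scale. The limma fits of 8 libraries each were tested on simulated data, and the interaction fit and the other procedures were not. Positions and 3′ UTRs came from GENCODE M21, which held 78.8% of the entries by symbol and all 9 members. Depth was estimated because FPKM keeps no counts, and it depends on GENCODE lengths. The sequence of Dcp2 and 1 gene of the lists are not reported here. The members, gene lists and alternatives were chosen with earlier results of these data known. Named are all members, Psma7, list genes called between genotypes, the list genes with the highest and lowest change in WT maturation, other list genes that a count of 5 or fewer covers (chosen after their values were seen), and the 3 entries most correlated with Dcp1a and Dcp2. The alternatives were other floors, filters, scaling and moderation, a replicate block, summed entries, all libraries in one fit, and each library left out. They were run on the list genes after seeing the data. Comparisons that share a group of libraries are not independent.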

Additional observations from a re-analysis of the deposited data

Results flagged for a closer look

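Among 111 groups of 4 libraries examined for a single library far from the other 3 (Dixon's 95% criterion, which chance meets in about 1 group in 20), 4 had one, and none of these belonged to the 9 decapping and 5′ to 3′ decay genes. In cKO MII replicate 3, Dxo was at 1.42 FPKM against 0.482 to 0.561 in the other cKO eggs, and Exosc5 was at 16.4 against 3.39 to 5.55. This is the library that kept 34.5% of the GV level of the decaying entries. Among the oocyte markers, Ooep was at 1738 FPKM in WT MII replicate 2 against 1293 to 1337, and Oosp1 at 6415 in cKO MII replicate 2 against 5639 to 5762.

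The effect of genotype differed between eggs and GV oocytes for 3 genes named here, by the limma interaction term over all 16 libraries. It was 1.16 for Lsm3 (adjusted p = 0.0338), 1.02 for Lsm6 (adjusted p = 0.0269) and 1.14 for the zona pellucida gene Zp3 (adjusted p = 0.0235). Each fell in WT maturation and was higher in cKO than in WT eggs. Zp3 was at 406 ± 67.8 FPKM in WT and 948 ± 267 in cKO eggs, and at 3977 ± 73.5 and 4146 ± 197 in GV oocytes. Leaving out 1 library at a time kept the term called in 8 of 16 fits for Lsm3 (adjusted p of up to 0.0768, lost without WT GV 1, 3 or 4, cKO GV 2 or 3, or WT MII 2, 3 or 4), in 12 for Lsm6 (up to 0.0580, lost without cKO GV 2 or 3 or WT MII 1 or 4) and in 15 for Zp3 (up to 0.0513, lost without cKO GV 3). Ooep was also higher in cKO than in WT eggs (2063 ± 336 against 1420 ± 213 FPKM, log2 0.53, limma adjusted p = 0.0499), a call kept in 1 of 8 fits without 1 library, that without cKO MII replicate 4 (adjusted p of up to 0.138).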

How the results depend on the processing

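The counts of members called in WT maturation, cKO maturation, GV oocytes and the interaction stayed within 1.5 times under every alternative run. In eggs the count of 1 (Ddx6) became 0 with no filter, with no intensity trend, with all 16 libraries in one fit and in each of the 8 fits without 1 library (0 to 0). The Ddx6 adjusted p ranged from 0.0303 to 0.125 over the alternatives and its log2 difference from -0.49 to -0.34. Lsm1 in cKO maturation also lost its call with no filter (adjusted p = 0.0808). Entries called in eggs numbered 620 higher and 141 lower, 14 and 3 with no filter, 415 and 86 with no trend, 1328 and 254 in one fit of all libraries, and 3 and 0 to 1024 and 136 without 1 library (the extremes came from omitting WT MII replicate 3 or cKO MII replicate 2). Each of the 8 omissions moved the total by over 1.5 times. Without a filter most entries sit at the floor and have no variance, so that setting is a weak check. In GV oocytes 11 higher and 2 lower became 124 and 33 in one fit of all libraries, 18 and 4 with no trend, 5 and 2 with rescaling, 5 and 1 at a mean of at least 5 FPKM, 2 and 1 with no filter, and 3 and 2 (without cKO GV replicate 1 or 4) to 16 and 3 (without WT GV replicate 1) without 1 library, with falls to 6 also without WT GV replicate 2 or 4. Entries with a called interaction went from 114 and 20 to 22 and 7 with no filter, 75 and 8 with 1 FPKM added, 192 and 16 at a mean of at least 5 FPKM, and 37 and 4 (without cKO GV replicate 3) to 605 and 46 (without cKO MII replicate 2), and each omission moved that total by over 1.5 times except those of WT GV replicate 2, WT MII replicate 2 and cKO MII replicates 1, 3 and 4. With no filter, the egg calls of Lsm3, Lsm6, Pnrc1, Lsm14a, Rbm8a, Zp3 and Ooep were all lost (adjusted p from 0.0750 to 0.190), as were the interaction calls of Lsm3 (0.120), Lsm6 (0.0621) and Zp3 (0.0976). Lsm14a and Ooep also lost theirs with 1 FPKM added (0.0518 each) and with no trend (0.0861 and 0.0680), and Ooep with rescaling (0.0544) and in one fit of all libraries (0.0677).

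The Psma7 log2 difference in eggs was -2.10 to -1.38 without 1 library, and -1.67 without WT MII replicate 4, where the exact p was 0.0571. Small differences that were not called changed sign. In GV oocytes Dcp2 was between -0.13 and 0.041, Edc4 between -0.16 and 0.21 and Ddx6 between -0.086 and 0.23 without 1 library (0.041 for Dcp2, -0.040 for Edc4 and -0.016 for Ddx6 without cKO GV replicate 3). Ddx6 in cKO maturation was 0.075 and the Xrn2 interaction -0.021 under median-ratio rescaling, and the Xrn2 term was -0.023 to 0.074 without 1 library. The causes were not tested.

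The labels do not say whether libraries with the same replicate number belong together. Correlations of same-numbered deviations from group means ran from -0.496 to 0.285. Libraries with different numbers were not compared, so these values cannot settle whether the libraries are paired. With the replicate block the count of members called in eggs was 0 (Ddx6 adjusted p = 0.106), the same 7 list genes lost their egg calls (adjusted p from 0.0502 to 0.103), the Lsm3 interaction was lost (0.0548), entries called were 101 higher and 7 lower in eggs, 4 and 2 in GV oocytes and 53 and 7 for the interaction, and the other 4 counts of members were within 1.5 times of the values reported.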
